A study of Mus musculus with 24 samples.

Results

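Haematopoietic stem cells (HSCs) with the highest signal in the allophycocyanin (APC) channel of the cytometer were compared with those with the lowest. Cells had been index sorted, which records the cytometer's values for the cell in each well. Within each sort plate the 20% of cells with the highest APC value were called APC-high and the 20% with the lowest APC-low. There were 285 APC-high and 285 APC-low cells, 570 of the 1430 recorded cells. The other 850 cells formed a middle group, and 10 cells of a group numbered 1 in the deposited record were left out. The choice used the APC value alone and no gene's level, so that all genes could be tested. The record names dyes and no antibody, so that no surface protein is named for APC here.

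All cells came from mice of 1 strain, -60/DR5-TA-RA-CFP, which carries a cyan fluorescent protein (CFP) reporter of retinoic acid signalling, and no group differed in genotype, treatment or time. Per the labels they were LSK (lineage-negative, positive for Sca-1 and Kit), CD150 positive and CD48 negative, with the CFP status given as mixed. The labels list 8 single-cell samples, and no file maps wells to samples or to mice. The 4 plates, numbered 2 to 5, therefore served as technical replicates of 1 pooled collection, and no error or p-value describes the spread between mice. The sources used here give no age for the animals.

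HSCs renew themselves and give rise to all blood lineages, but single HSCs differ in the lineage genes that they already transcribe at a low level. Von Willebrand factor, encoded by Vwf, is a large adhesive protein stored in platelets, in their parent cells the megakaryocytes, and in endothelium. In the mouse, HSCs with Vwf are known for a bias towards platelet production, and other HSCs carry low levels of lymphoid or myeloid genes such as Flt3, which encodes a cytokine receptor of multipotent progenitors. Expression was measured as unique molecular identifiers (UMIs), each of which stands for 1 captured RNA molecule.

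The APC-high libraries, 1 per plate with 69 to 73 cells each, held 103094 to 115144 UMIs. The APC-low libraries had the same cell numbers and 86862 to 108168 UMIs. The median over all recorded cells was 1265 UMIs. The lowest APC channel number on the high side was 528 in plate 2, 538 in plate 3, 536 in plate 4 and 549 in plate 5, and the highest on the low side was 416, 410, 412 and 416. Plate 2 stood apart from the others. Of 2731 gene entries that reached 100 counts per 1000000 UMIs (CPM) in at least 1 plate, 98 were over 4 times lower in plate 2 than in every other plate, against 0 in each of the other plates. High and low cells were always compared within a plate.

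APC-high HSCs had more Vwf RNA, more RNA of a few HSC genes and of linker histones, and less RNA of genes for a redox enzyme, cytoskeletal proteins and a myeloid protease. Of 2872 genes that passed a filter on low counts, 18 differed at an adjusted p of 0.05 in the edgeR quasi-likelihood test with plate as a block (0.627% of those tested). Of these, 8 were higher (0.279%) and 10 lower (0.348%) in APC-high cells. At an unadjusted p of 0.05, 287 genes passed (9.99%), and DESeq2 called 11 genes (1.06% of those to which it gave an adjusted p). Of the 18 genes, 16 moved the same way in all 4 plates, and for 11 the 4 high values did not overlap the 4 low ones. Such separation was seen for 82 of the 2872 genes (2.86%). Levels below are normalised CPM over the UMIs of tested genes unless another scale is named. Fold changes are log2 of high over low with a standard error (SE). For edgeR the SE was derived as the size of the log2 fold change over the square root of the F statistic. This SE and its p-value lean on a spread shared over genes (6 residual and 77.8 prior degrees of freedom). They can therefore be smaller than a gene's own spread between plates would give.

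**Figure D1:**
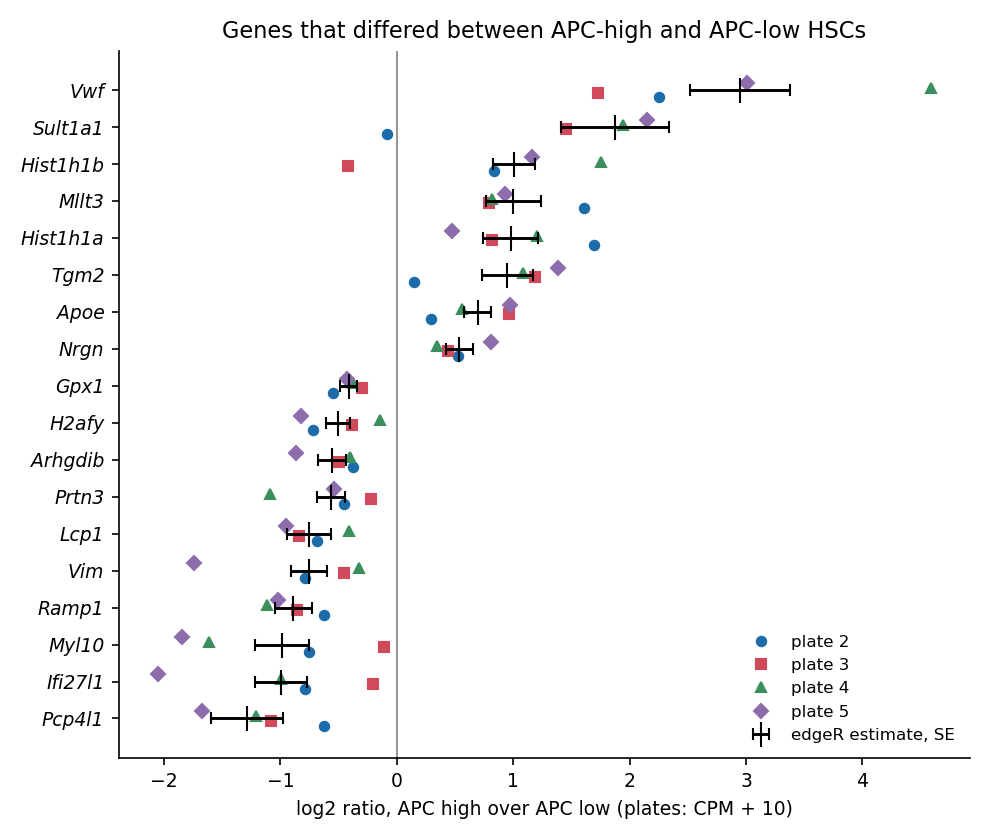
Log2 ratio of APC-high over APC-low HSCs for the 18 genes that differed (x axis, log2 of CPM plus 10 for the plates), with 1 point per plate and the edgeR estimate with its SE as a black bar. Vwf lies farthest to the right at 2.95, and all points lie on the side of their estimate except plate 2 for Sult1a1 and plate 3 for Hist1h1b.

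Vwf had the largest change of the 18 genes. It stood at 225, 179, 231 and 466 CPM in the APC-high cells of plates 2, 3, 4 and 5 and at 39.2, 46.9, 0 and 49.2 CPM in the APC-low cells. Every high value lay above every low value. The log2 fold change was 2.95 ± 0.43 (SE, n = 4 plates, edgeR adjusted p = 2.7e-06), a fold of 7.73. These levels rest on 95 UMIs in APC-high and 11 in APC-low cells. The call held without each plate in turn, with log2 fold changes from 2.65 to 3.29. It also held, with a fold over 1.5 times smaller, with the APC rank of each cell corrected for its rank in the channel of another dye, PE, at 2.18 ± 0.38 (adjusted p = 1.2e-05), and with sides of 30%, at 2.12 ± 0.32 (adjusted p = 4.9e-06).

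The Vwf signal was spread over many cells. A Vwf UMI was found in 64 of the 285 APC-high cells (22.5%, exact 95% interval 17.7 to 27.8%), in 56 of 850 middle cells (6.59%, 5.01 to 8.47%) and in 10 of 285 APC-low cells (3.51%, 1.70 to 6.36%). The intervals cover counting error only. By plate the share in APC-high cells was 22.5, 14.5, 20.8 and 31.5%, and in APC-low cells it was 4.23, 5.8, 0 and 4.11%. The difference of 18.8 ± 7.75 percentage points (SD, n = 4 plates) was positive in 4 of 4 plates. Flipping the sign of the plate differences, as an exact two-sided permutation test, gave p = 0.13, which with 4 plates is the lowest value it can take (adjusted p = 0.25 over 16 measures). With every cell thinned to 1000 UMIs, which left out 81 high and 86 low cells, the shares were 17.1 and 2.82%. The median depth was 1318 UMIs in APC-high and 1202 in APC-low cells. Of the 26 cells with at least 2 Vwf UMIs, 20 were APC-high and 1 was APC-low, and all 8 cells with at least 3 were APC-high.

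Most Vwf UMIs lay at the upper end of the channel. In 5 bins of APC, each with about 20% of a plate's cells, the number of Vwf UMIs from the lowest to the highest bin was 11, 21, 13, 27 and 95, so that the top bin held 56.9% of them. In CPM of all UMIs, the mean over plates was 27.0, 52.3, 31.6, 62.3 and 216.6. The top bin ranged from 137.2 to 362 over the plates and the next bin from 34.8 to 97.9, so that these did not overlap. In the APC-low cells of plate 4 no Vwf UMI was found, which allows up to 34.5 CPM of all UMIs (3 UMIs). Between APC-high and middle cells the log2 fold change was 2.17 ± 0.29 (edgeR adjusted p = 3.4e-07), and between middle and APC-low cells it was 0.78 ± 0.51 (adjusted p = 0.956).

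**Figure D2:**
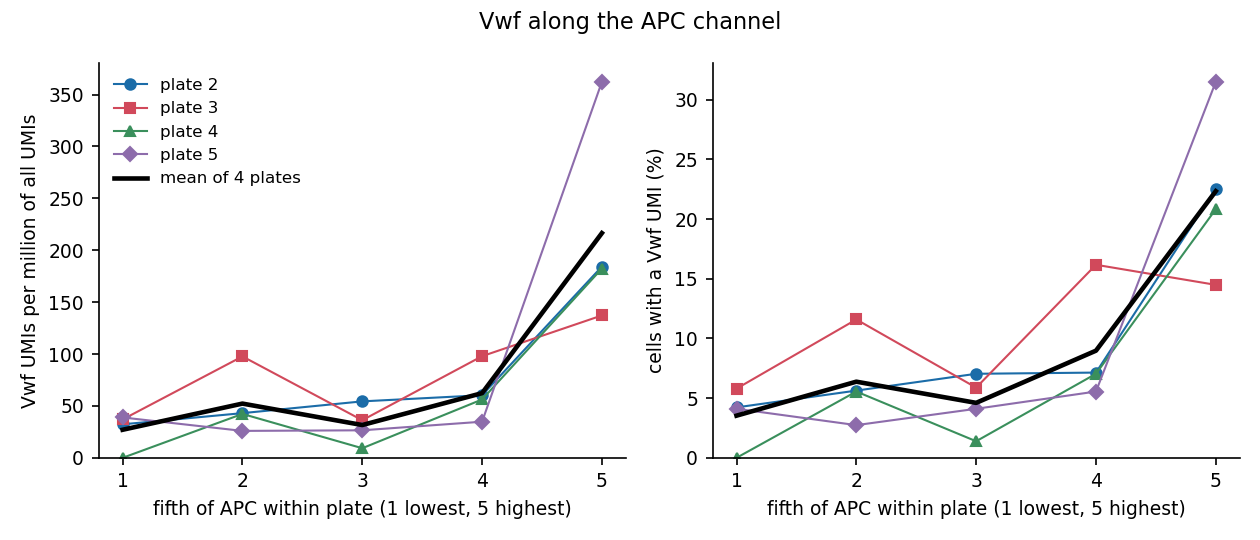
Vwf along 5 bins of the APC channel within plate (x axis, 1 lowest to 5 highest), as CPM of all UMIs (left) and as the percent of cells with a Vwf UMI (right), with 1 line per plate and the mean in black. The mean level is 62.3 or below in the 4 lower bins and 216.6 in the bin with the highest APC.

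The deposited record gives each cell a group number with no meaning stated. In groups 2, 3, 4, 5, 7, 8 and 9 the share of cells with a Vwf UMI was higher in APC-high than in APC-low cells, which was not tested within groups. In group 4, which held the most cells, 18 of 61 APC-high cells (29.5%) and 3 of 65 APC-low cells (4.62%) had a Vwf UMI. In group 3 the counts were 10 of 40 and 0 of 40 cells, and in group 9 they were 12 of 42 and 2 of 30. The smallest groups, 6 and 10, held 3 and 11 APC-high cells, too few to compare. Cells of both sides were found in each of the 9 groups, in differing numbers. Group 2 held 35 APC-high and 20 APC-low cells, group 9 held 42 and 30, and group 5 held 37 and 54. The largest differences were 5.30 ± 6.01 percentage points for group 2 and -5.95 ± 5.38 for group 5, as the high minus the low share (SD, n = 4 plates). The lowest adjusted p of the exact sign-flip permutation test over the 9 groups was 0.5625. With 4 plates this test cannot reach a p of 0.05, so that it cannot tell whether the shares differed.

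Several weakly expressed platelet genes were also higher in APC-high cells, and others were not. In a fit without the low-count filter, edgeR called 27 of 13132 genes (0.206%), 17 of them among the 18 above, and 9 of the 27 lay below the filter. These 9 and the other genes below the filter are named after their values had been seen. Among the 9 were Bex4, with 50 UMIs in APC-high and 12 in APC-low cells, Wdsub1, with 4 and 24, and Uhrf1bp1, with 0 and 15. Sdpr (also called Cavin2), a caveolar protein gene that platelets express strongly, had 5, 6, 15 and 14 UMIs in the APC-high cells of plates 2 to 5 and 0, 1, 1 and 1 in the APC-low cells. The ratio of 40 to 3 UMIs, scaled to all UMIs, was 11.9 (exact 95% counting interval 3.79 to 60.1; edgeR adjusted p = 0.00015). Gp1bb, a subunit of the platelet receptor for von Willebrand factor, had 12, 5, 5 and 8 UMIs in APC-high and 1, 2, 1 and 0 in APC-low cells (log2 fold change 2.68 ± 0.63, adjusted p = 0.018). Clu, which encodes clusterin, a protein of platelet granules, had 44 against 10 UMIs (1.98 ± 0.49, adjusted p = 0.031). For Sdpr, Gp1bb and Clu every plate was higher on the APC-high side. Some other genes listed as megakaryocyte or platelet genes and below the filter were close to even or lower. F2r had 24 UMIs in APC-high and 29 in APC-low cells, Plek 7 and 8, Thbs1 2 and 5 and Itga6 22 and 18. Gp5, with 21 and 11 UMIs, Fhl1, with 11 and 3, and Gata1, with 15 and 4, were higher in sum but were not called.

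Of the 13 genes of a megakaryocyte and platelet list that passed the filter, 1, Vwf, was called higher (0.279% of all tested genes were), 6 passed an unadjusted p of 0.05, all of them higher (5.57% of all tested genes did so), and the median log2 fold change was 0.40 against 0.0028 over all 2872 genes. Examples that did not pass the adjusted test were Pf4, which encodes a platelet chemokine (1.08 ± 0.40), Gp9, a subunit of the same platelet receptor (0.83 ± 0.32), and the transcription cofactor Zfpm1 (0.46 ± 0.17), with adjusted p of 0.271, 0.29 and 0.271. Pf4 passed it with APC corrected for scatter (1.36, adjusted p = 0.030), and Zfpm1 with sides of 10% (0.88, adjusted p = 0.038) and with APC corrected for CFP (0.62, adjusted p = 0.046). Fli1 (0.75 ± 0.36) and Cd9 (0.40 ± 0.22) also had estimates above 0. Cd63 (0.20 ± 0.20), Nfe2 (0.11 ± 0.14), Lat (0.07 ± 0.34), Gng11 (-0.01 ± 0.22) and Fyb (-0.36 ± 0.34) did not pass either. Summed over all 38 listed genes, the list made up 3618 to 4266 CPM of all UMIs in the 4 APC-high libraries and 2820 to 3154 in the APC-low ones. These ranges did not overlap. Some listed genes were close to 0: Ppbp had 0 UMIs in APC-high and 2 in APC-low cells, Gp6 0 and 0, and Tubb1 1 and 0. Other platelet genes of the list were detected on both sides, such as Gp9 with 67 and 34 UMIs, Pf4 with 60 and 25, Itga2b with 32 and 20 and Selp with 23 and 16.

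Some lymphoid and multipotent progenitor genes were lower in APC-high cells. Flt3 had 1, 0, 0 and 1 UMIs in the APC-high cells of plates 2 to 5 and 3, 2, 8 and 9 in the APC-low cells. The 22 against 2 UMIs gave a low-over-high ratio of 12.3 (exact 95% counting interval 3.03 to 108.2; adjusted p = 0.014 without the filter). Cd52, a surface glycoprotein gene of lymphocytes, had 3, 2, 3 and 2 UMIs in APC-high and 9, 8, 13 and 5 in APC-low cells (log2 fold change -1.93 ± 0.49, adjusted p = 0.045 without the filter). Both genes were lower on the APC-high side of all 4 plates. Cd34, a surface sialomucin gene that is low in the most primitive mouse HSCs, was at 154, 131, 87.9 and 163 CPM in APC-high and 222, 434, 191 and 221 CPM in APC-low cells, with no overlap. Its log2 fold change of -0.99 ± 0.28 missed the threshold (edgeR adjusted p = 0.074). It passed in 7 alternatives, among them sides of 10% (-1.54, adjusted p = 0.039) and 30% (-0.90, adjusted p = 0.033) and APC corrected for CFP (-1.48, adjusted p = 0.00051) or PE (-1.03, adjusted p = 0.023), and stood at -0.66 without plate 3 (adjusted p = 0.56).

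Of the list of multipotent and lymphoid priming genes, 4 passed the filter, 0 were called by edgeR or DESeq2 and all 4 passed an unadjusted p of 0.05 (9.99% of all tested genes did so). These were Cd34, Cd27 (-0.75 ± 0.21), Lsp1 (-0.42 ± 0.17) and, in the opposite direction, the growth regulator gene Mycn (0.89 ± 0.24, adjusted p = 0.056, and 1.13 with adjusted p = 0.0072 when the cells highest in S phase and G2/M UMIs were left out). Cd27 and Lsp1 were named after their values had been seen. Summed over the whole list, the level was 978 to 1183 CPM of all UMIs in APC-high and 1323 to 1627 in APC-low libraries, again without overlap.

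**Figure D3:**
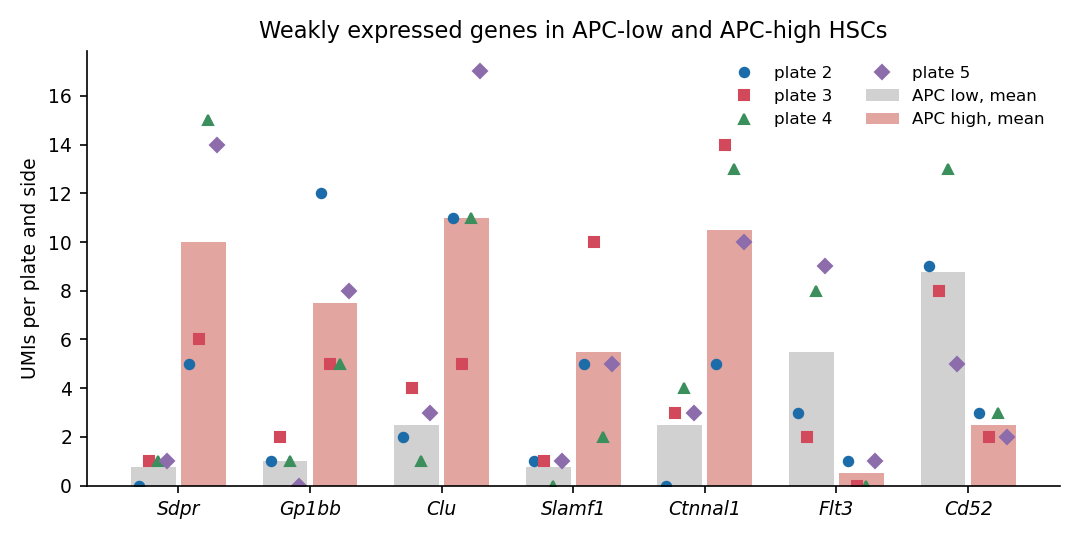
UMIs per plate (points) and their mean (bars) in APC-low and APC-high HSCs for 7 genes below the filter on low counts. Sdpr, Gp1bb, Clu, Slamf1 and Ctnnal1 have more UMIs in APC-high cells, and Flt3 and Cd52 have fewer.

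Several HSC genes were higher in APC-high cells. Apoe, which encodes the lipid carrier apolipoprotein E, stood at 1797, 1630, 1649 and 2134 CPM in APC-high and 1465, 833, 1117 and 1082 CPM in APC-low cells (0.69 ± 0.12, edgeR adjusted p = 9.2e-05). Tgm2, a transglutaminase gene known to respond to retinoic acid, had 378, 547, 385 and 466 CPM against 340, 235, 176 and 172 CPM (0.95 ± 0.22, adjusted p = 0.0071). Mllt3, a chromatin reader gene that maintains HSCs, had 260, 333, 396 and 501 CPM against 78.5, 188, 220 and 258 CPM (1.00 ± 0.24, adjusted p = 0.013). For Apoe, Tgm2 and Mllt3 every high value lay above every low value. The call of Tgm2 was lost without plate 3 or plate 5 and that of Mllt3 without plate 2 or plate 5, while the call of Apoe was not lost without any plate. Tgm2 also lost its call with sides of 10% (0.75, adjusted p = 0.32). Mllt3 lost it with sides of 30% (0.64, adjusted p = 0.19), with APC corrected for PE (0.52, adjusted p = 0.43) and in DESeq2 (adjusted p = 0.066).

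Sult1a1, a phenol sulfotransferase gene linked to dormant HSCs, rose by 1.88 ± 0.46 (adjusted p = 0.020). It was at 11.8, 178, 198 and 198 CPM in APC-high and 13.1, 58.7, 44.1 and 36.9 CPM in APC-low cells, so that plate 2 showed almost no signal on either side and no rise. Its call was lost without plate 3 or plate 5, and with APC corrected for PE it stood at 1.10 (adjusted p = 0.34). Ctnnal1, an HSC-enriched catenin-like gene below the filter, had 42 against 10 UMIs (1.91 ± 0.49, adjusted p = 0.042 in the fit without the filter). Other HSC genes below the filter went either way and were not called in that fit. Trpc6 had 19 UMIs in APC-high and 4 in APC-low cells, Hoxa9 33 and 22, Tal1 21 and 17 and Robo4 21 and 19. Hoxb4 had 3 and 5 UMIs and Angpt1 11 and 21. Of the HSC list, 4 of 19 tested genes rose, against 0.279% of all tested genes, 0 fell and 15 did not pass, with a median log2 fold change of 0.24. Among those that did not pass were Procr (0.15 ± 0.32), which encodes the HSC surface receptor EPCR, and the stem cell transcription factor Hlf (-0.55 ± 0.17, adjusted p = 0.134), named after its value had been seen.

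Of the genes whose proteins set the sort gate, Kit was tested at 0.02 ± 0.19 (adjusted p = 0.993). Slamf1, which encodes CD150, lay below the filter with 22 UMIs in APC-high, 16 in the 850 middle and 3 in APC-low cells. By plate there were 5, 10, 2 and 5 UMIs in APC-high and 1, 1, 0 and 1 in APC-low cells. Its high-over-low ratio was 6.54 (exact 95% counting interval 1.97 to 34.1), and it missed the threshold in the fit without the filter (adjusted p = 0.197). Cd48 had 0 UMIs in APC-high and 1 in APC-low cells. Ly6a, which encodes Sca-1, had 13 and 19.

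Nrgn, a calmodulin-binding protein gene, was higher in APC-high cells, at 1489, 1464, 1176 and 1644 CPM against 1033, 1079, 926 and 935 CPM (0.54 ± 0.12, adjusted p = 0.0046, lost without plate 2 or plate 5). The linker histone genes Hist1h1a and Hist1h1b, which are transcribed with DNA replication, were also higher. Hist1h1a stood at 319, 214, 385 and 466 CPM in APC-high and 91.5, 117, 162 and 332 CPM in APC-low cells (0.98 ± 0.24, adjusted p = 0.015, lost without plate 2, 3 or 4). Hist1h1b, named after its value had been seen because plate 3 went the other way, had 567, 226, 868 and 1528 CPM against 314, 305, 250 and 676 CPM (1.00 ± 0.18, adjusted p = 0.00016). The groups overlapped for both histones.

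CFP was higher in APC-high cells as well. The median CFP percentile within plate was 66.0 ± 4.18 in APC-high and 39.9 ± 3.91 in APC-low cells (SD, n = 4 plates), higher in 4 of 4 plates. When the APC rank was corrected for the CFP rank, Hist1h1a stood at 0.15 and Hist1h1b at 0.23 and neither was called, and Vwf stood at 2.51 ± 0.39 (edgeR adjusted p = 3.4e-07). Of the 18 genes, 17 were tested after this correction, all 17 in the same direction, and 9 were still called. Both histones also lost their call with sides matched on UMIs per cell (Hist1h1a at 0.54, adjusted p = 0.59, and Hist1h1b at 0.59, adjusted p = 0.25), in DESeq2 (adjusted p = 0.066 and 0.26) and with the cells with a Vwf UMI left out (0.82 and 0.60, adjusted p = 0.31 for both). Hist1h1b also lost its call with the cells highest in S phase and G2/M UMIs left out (0.64 ± 0.40, adjusted p = 0.65). With APC corrected for PE both histones were called, Hist1h1a at 1.78 and Hist1h1b at 1.74. Other replication and mitosis genes did not pass. Among S phase genes, 0 of 20 tested were called by edgeR or DESeq2 and 0 passed an unadjusted p of 0.05, with a median of 0.06 and Pcna, the replication clamp gene, at 0.35 ± 0.18. Among G2/M genes, 0 of 23 were called by either tool and 5 passed an unadjusted p of 0.05, all higher (5.57% of all tested genes did so), with a median of 0.29. Ube2c, a mitotic ubiquitin enzyme gene, had 11, 9, 37 and 37 UMIs in the APC-high cells of plates 2 to 5 and 15, 15, 1 and 19 in the APC-low cells. Its log2 fold change of 0.71 ± 0.31 (adjusted p = 0.42) rested on plate 4 and was 0.10 without it. It was called with APC corrected for PE (1.48, adjusted p = 0.00036) or for PE-Cy7, Alexa Fluor 700 and APC-Alexa Fluor 750 (1.02, adjusted p = 0.046), and stood at -0.14 with APC corrected for CFP. After thinning, S phase and G2/M genes made up 0.883 ± 0.252% of the UMIs in APC-high and 0.837 ± 0.0547% in APC-low cells, with a difference above 0 in 2 of 4 plates.

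Of the 10 genes that were lower in APC-high cells, Gpx1, a glutathione peroxidase gene that removes hydrogen peroxide, had the smallest SE. It was at 2920, 2999, 3044 and 3219 CPM in APC-high and 4263, 3684, 3952 and 4342 CPM in APC-low cells (-0.42 ± 0.07, adjusted p = 0.00016). The groups did not overlap, and the call held without each plate in turn. Of the list of redox and stress genes, 1 of 13 tested fell, against 0.348% of all tested genes, 0 rose and 12 did not pass, and the median was -0.01.

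Vim, which encodes the intermediate filament protein vimentin, was at 603, 571, 538 and 210 CPM in APC-high and 1046, 786, 676 and 726 CPM in APC-low cells (-0.75 ± 0.16, adjusted p = 0.0031). Lcp1, the actin-bundling plastin of leukocytes, was at 272, 309, 330 and 268 against 445, 563, 441 and 529 CPM (-0.75 ± 0.19, adjusted p = 0.021). Neither gene's groups overlapped, but the calls were lost without plate 2 or plate 5 and, for Lcp1, also without plate 3. Arhgdib, a gene that regulates the cytoskeleton, was at 461, 1131, 1022 and 793 CPM against 602, 1596, 1352 and 1451 CPM (-0.56 ± 0.12, adjusted p = 0.0046, lost without plate 5), lower in each plate although the groups overlapped. Of the actin cytoskeleton list, 1 of 12 tested genes fell, against 0.348% of all, 5 passed an unadjusted p of 0.05, all lower (4.42% of all tested genes did so), and the median was -0.14.

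Ramp1, which encodes a partner protein of the calcitonin receptor-like receptor, was at 615, 417, 374 and 268 CPM in APC-high and 955, 763, 823 and 553 CPM in APC-low cells (-0.89 ± 0.16, adjusted p = 0.00016). It was lower in each of the 4 plates and the call held without each of them. Prtn3, the myeloid granule protease 3, was at 1123, 964, 692 and 910 against 1543, 1126, 1484 and 1328 CPM (-0.57 ± 0.12, adjusted p = 0.0031, lost without plate 4). With sides of 10% Prtn3 stood at -0.18 (adjusted p = 0.83). Of the myeloid progenitor list 1 of 3 tested genes, Prtn3, fell, against 0.348% of all tested genes. The other tested genes were Calr at 0.22 ± 0.11 and Lyz1 at -0.13 ± 0.19. Below the filter, the protease gene Elane had 12 UMIs in APC-high and 7 in APC-low cells, Ctsg 5 and 7 and Mpo 13 and 30. Except for Prtn3 these genes were named after their values had been seen. H2afy, which encodes the histone variant macroH2A1, was at 910, 1547, 1759 and 1341 against 1504, 2030, 1939 and 2386 CPM (-0.50 ± 0.10, adjusted p = 0.0020, lost without plate 2 or plate 5). For Prtn3 the groups did not overlap and for Ramp1 and H2afy they did.

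The other 3 lower genes were at 500 CPM or less in most libraries. Pcp4l1 had the largest fall, from 236 ± 106 to 95.8 ± 18.8 CPM (SD, n = 4 plates; -1.29 ± 0.31, adjusted p = 0.014, lost without plate 5). Ifi27l1, an interferon-inducible family gene, went from 429 ± 83.9 to 215 ± 71.2 CPM (-1.0 ± 0.22, adjusted p = 0.0061, lost without plate 2 or plate 5). Myl10, a myosin light chain gene, went from 424 ± 86.1 to 217 ± 122 CPM (-0.99 ± 0.23, adjusted p = 0.013, lost without plate 2, 4 or 5).

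Markers of mature myeloid cells and of endothelium were few. The list of mature neutrophil and monocyte genes had 1 UMI in APC-high and 10 in APC-low cells, with S100a8 and S100a9 at 0 in both. By library these sums ran from 0 to 9.15 CPM of all UMIs in APC-high and from 21.5 to 29.2 in APC-low cells, and their part in the lower myeloid gene was not tested. The mast cell and basophil list had 3 and 1 UMIs. The list of mature B, T and NK cell genes had 347 UMIs in APC-high and 302 in APC-low cells. Of its 5 tested genes 0 were called by edgeR or DESeq2 and 0 passed an unadjusted p of 0.05. Its highest counts were those of Cd74, the invariant chain of MHC class II, with 112 and 89 UMIs, and of the class II gene H2-Aa, with 102 and 94. Cd79b, a B cell receptor subunit gene, had 31 and 28 UMIs and the NK cell granule gene Nkg7 11 and 13, and Cd3e and Cd79a, which define T and B cells, were at 0 on both sides. The endothelial and stromal list had 33 and 24 UMIs, of which 23 and 19 were Pecam1, a gene that HSCs also express. Cdh5, which defines endothelium, was at 0 on both sides. Kdr of the same list had 3 UMIs in APC-high and 0 in APC-low cells, Plvap 3 and 0 and Emcn 4 and 4. Endothelium is another source of Vwf, and its part in the Vwf signal was not tested. Of the erythroid list 0 of 6 tested genes were called by edgeR or DESeq2, 5 had an estimate above 0, and the median was 0.12. An unadjusted p of 0.05 was passed by 2 of the 6 genes (9.99% of all tested genes did so), in opposite directions. These were the globin gene Hba-a2 at -0.99 ± 0.35 and Blvrb, a biliverdin reductase gene named after its value had been seen, at 0.92 ± 0.33, both with an adjusted p of 0.27. Hba-a2 passed with the cells highest in S phase and G2/M UMIs left out (-1.30, adjusted p = 0.042) and with APC corrected for PE-Cy7, Alexa Fluor 700 and APC-Alexa Fluor 750 (-1.14, adjusted p = 0.038), and stood at -0.37 in thinned cells. Below the filter the APC-high and APC-low counts were 17 and 1 UMIs for Epor, the erythropoietin receptor gene, 18 and 3 for the water channel gene Aqp1, 15 and 4 for the transcription factor gene Gata1 and 6 and 2 for the erythroid factor gene Klf1. They were 7 and 4 for Ermap and 2 and 2 for Rhd. None of these genes passed in the edgeR fit without the filter, with adjusted p of 0.129 for Epor, 0.384 for Aqp1 and 0.846 for Gata1. Summed over the list, the level was 2871 to 4375 CPM of all UMIs in APC-high and 2766 to 3799 in APC-low libraries, and these ranges overlapped.

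Between APC-high and middle cells edgeR called 13 of 2872 genes (0.453%), 9 higher (0.313%) and 4 lower (0.139%), and between middle and APC-low cells it called 1 (0.0348%), Hist1h1b at 0.79. Tgm2 stood at 0.97 (adjusted p = 0.00039) in the first and at -0.02 in the second comparison. Mllt3 (0.78, adjusted p = 0.022), Apoe (0.50, adjusted p = 0.0012), Myl10 (-0.92, adjusted p = 0.0094) and Gpx1 (-0.30, adjusted p = 0.0094) were also called between APC-high and middle cells. Vim and Prtn3 were not, at -0.32 and -0.20, and stood at -0.44 and -0.37 between middle and APC-low cells. The difference between these steps was not tested.

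Index values of other channels moved with APC. The median PE percentile within plate was 34.4 ± 2.33 in APC-high and 65.2 ± 2.56 in APC-low cells (SD, n = 4 plates), lower in 4 of 4 plates. PE-Cy5 was also lower in all plates, by 20.1 ± 10.3 percentile points, as was PE-Cy7, with a difference of -10.3 ± 6.19. Forward scatter width was higher by 7.61 ± 4.78 points in 4 of 4 plates. The median number of UMIs per cell was 1288 ± 120 in APC-high and 1219 ± 154 in APC-low cells, higher in 4 of 4 plates by 2 to 201 UMIs. Each of these differences had an exact two-sided sign-flip permutation p of 0.13, the lowest possible value, and an adjusted p of 0.25 over 16 measures.

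**Figure D4:**
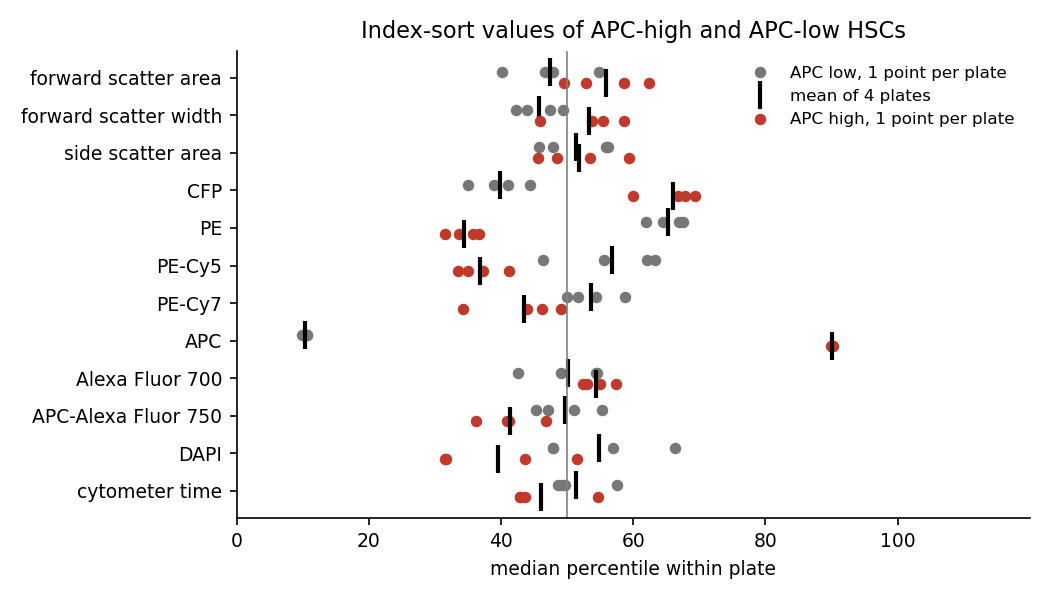
Median percentile within plate (x axis) of each index-sort value in APC-low and APC-high HSCs, with 1 point per plate and the mean as a black bar. APC itself chose the cells; CFP is higher and PE, PE-Cy5 and PE-Cy7 are lower in APC-high cells of every plate.

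Vwf was compared along the other dyes as well. With sides taken by another channel from the same cells, Vwf had 21 UMIs in PE-high and 45 in PE-low cells (log2 fold change -1.45 ± 0.41, edgeR adjusted p = 0.028). The log2 fold change was -1.34 ± 0.39 for PE-Cy7 (adjusted p = 0.012), 0.75 ± 0.38 for Alexa Fluor 700 (adjusted p = 0.303) and -1.03 ± 0.35 for APC-Alexa Fluor 750 (adjusted p = 0.032). The per-plate log2 ratio for APC exceeded that for each other channel in 4 of 4 plates, by a mean of 4.00 ± 1.93 over PE, 3.98 ± 1.72 over PE-Cy7, 2.00 ± 0.95 over Alexa Fluor 700 and 3.80 ± 2.18 over APC-Alexa Fluor 750 (SD). In each case the exact sign-flip permutation test gave p = 0.13, again the lowest possible, and an adjusted p of 0.184 over 72 tests. Cells with high APC had a Vwf UMI in 20 of 87 cases (23%) above the plate's median of PE and in 41 of 181 (22.7%) below it. Above the median of CFP the count was 46 of 192 APC-high cells (24%) and below it 18 of 93 (19.4%).

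Other called genes also differed by channel. The APC comparison called 0.627% of its genes, PE 2.31%, PE-Cy7 7.22%, Alexa Fluor 700 6.29% and APC-Alexa Fluor 750 11%. Hist1h1b, at 1.00 for APC, stood at 2.97 for APC-Alexa Fluor 750 and at -2.89 for Alexa Fluor 700. Gpx1 and Ramp1, at -0.42 and -0.89 for APC, lay between -0.05 and 0.30 for the other channels and were called in none of them. Apoe was at 0.69 for APC and at -0.71 for PE. The comparisons share cells, so that their values are set side by side without a test of overlap.

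**Figure D5:**
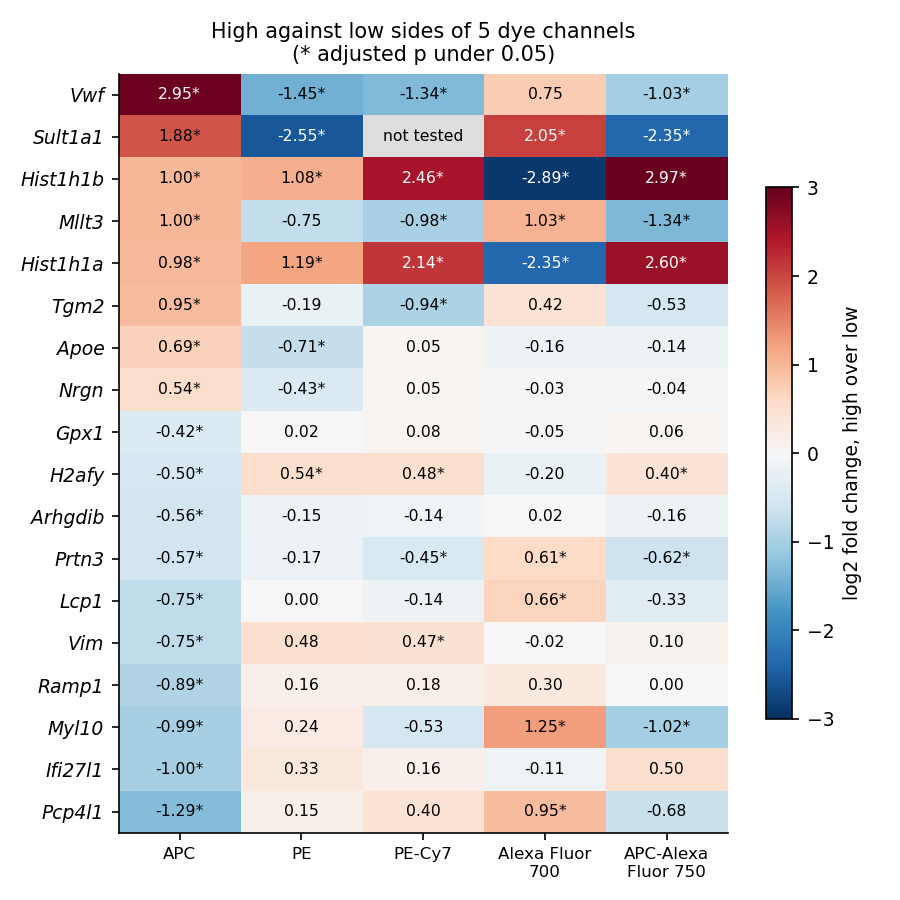
Log2 fold change of high over low cells (colour and number) for the 18 genes that differed with APC (rows), with sides taken by each of 5 dye channels (columns) and an asterisk for an adjusted p under 0.05. Vwf is positive for APC at 2.95 and negative for PE, PE-Cy7 and APC-Alexa Fluor 750.

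Promoter sequences are shown for 1 gene that rose and 1 that fell with APC, as examples that do not stand for all genes of their direction. RefSeq promoters (build GRCm38.p6, spanning each gene's start) were matched for 12 of the 18 genes, 20 promoters in all. They were searched on both strands for AGATAA, a form of the GATA factor motif, and for GGAAGT, a form of the ETS factor motif, neither of which contains the other. AGATAA was in 2 of the 20 and in 11.2% of all 32851 promoters, and GGAAGT was in 7 of the 20 and in 23.8% of all. The Nrgn promoter (chr9:37552696-37552995, minus strand) holds GGAAGT, shown in capitals, and the Gpx1 promoter (chr9:108338830-108339129, plus strand) holds neither motif. GGAAGT was not limited to 1 direction. It was in a promoter of the higher genes Nrgn and Sult1a1 and of the lower genes Vim, Myl10, Arhgdib, Prtn3 and Lcp1. AGATAA was in a promoter of the lower genes Myl10 and Arhgdib. A match is a description of the letters and not evidence of binding.
Nrgn: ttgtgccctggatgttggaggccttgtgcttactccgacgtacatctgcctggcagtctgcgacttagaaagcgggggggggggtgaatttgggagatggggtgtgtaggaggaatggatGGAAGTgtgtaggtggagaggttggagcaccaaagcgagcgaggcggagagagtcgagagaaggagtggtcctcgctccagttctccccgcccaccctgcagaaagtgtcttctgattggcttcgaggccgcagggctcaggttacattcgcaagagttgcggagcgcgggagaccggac
Gpx1: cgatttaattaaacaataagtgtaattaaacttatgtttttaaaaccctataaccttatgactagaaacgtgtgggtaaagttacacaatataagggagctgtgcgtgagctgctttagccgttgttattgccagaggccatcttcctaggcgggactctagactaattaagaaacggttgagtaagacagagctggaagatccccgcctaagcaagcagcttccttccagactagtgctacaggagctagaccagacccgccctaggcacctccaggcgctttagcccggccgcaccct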

How the data were processed

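Single HSCs were index sorted into 384-well plates with barcoded primers, per the labels' protocols. The authors deposited raw UMI counts for 27297 gene entries in 1536 wells, and how reads became counts is not stated in the sources used here. In the deposited index record, APC is on a log10 scale of whole channel numbers, forward scatter area a linear intensity and every other value was treated as a score, per the file headers and the values. All were used as ranks within a plate. PE was missing in 47 wells, PE-Cy5 in 14, PE-Cy7 in 77 and DAPI in 70. The 106 wells that lack an index record, with up to 502 UMIs each, were left out. The submitters' processing notes name bcl2fastq 2.15.0.4, Bismark 0.19.0, STAR, cutadapt, featureCounts and DESeq2 without their roles. The bulk RNA-seq and bisulphite samples were not analysed here.

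UMIs were summed per plate and side and tested with edgeR 4.0.16 in R 4.3.3 (filterByExpr, TMM, quasi-likelihood F test, Benjamini-Hochberg threshold 0.05), with the high, middle and low sides in 1 fit and plate as a block, since each plate gives all 3 sides. The fit had 6 residual and 77.8 prior degrees of freedom. The scripts were tested on simulated data. DESeq2 1.42.0 was an alternative. Middle cells whose APC value was tied with a side's edge numbered at most 2 per edge and plate. Single values were compared by an exact sign-flip permutation test over plates. Doublets were not called, since a single-cell sort filled the wells. The genes named were Vwf, the called genes that moved the same way in all 4 plates, the tested genes of the sort gate and megakaryocyte lists, and of each other list the called genes or the 1 with the lowest p. Others are marked in the text. A few genes that this rule names are not reported here. The members and lists were chosen with earlier results of these data known.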

Additional observations from a re-analysis of the deposited data

Results flagged for a closer look

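The log2 ratio of Mllt3 between APC-high and APC-low cells was 1.61 in plate 2, against 0.80 to 0.93 in plates 3, 4 and 5, a gap that is wide for 4 values by Dixon's test. Of 34 such sets of plate values tested, chance alone gives about 1 in 20. Plate 2 had the lowest Mllt3 level on the APC-low side, 78.5 CPM. Without plate 2 the log2 fold change of Mllt3 was 0.87 and no longer passed the threshold.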

How the results depend on the processing

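Vwf kept its direction in every alternative that tested it, with log2 fold changes from 2.12 to 3.29. It fell below the low-count filter, and had no test, with sides of 10%, with cells thinned to 1000 UMIs and with the cells highest in S phase and G2/M UMIs left out, and DESeq2 gave it no adjusted p (log2 fold change 3.02, unadjusted p 2.2e-07). Without the replicate block (plate) no gene was called for APC (0 for high against low, 0 for high against middle and 0 for middle against low), Vwf had a log2 fold change of 2.94 with an adjusted p of 0.129, and 5 genes were called for PE, 32 for PE-Cy7, 14 for Alexa Fluor 700 and 115 for APC-Alexa Fluor 750, against 71, 236, 192 and 390 with it. All 18 genes kept their direction there.

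The 18 calls of high against low became 11 with DESeq2, 29 with APC corrected for CFP and, in alternatives chosen after seeing the data, 31 with APC corrected for PE and 8 with the cells with a Vwf UMI left out. Leaving out each plate gave 8 to 17 calls, with 11 without plate 2 and 8 without plate 5. The 13 calls of high against middle became 5 with sides of 10%, 5 with the left-out group of 10 cells kept, 6 with cells of at least 1000 UMIs, 8 with thinned cells, 2 without the cells with a Vwf UMI and 23 with APC corrected for PE, and 2 to 7 without each plate. The single call of middle against low became 5 without the low-count filter and 2 with APC corrected for the other dyes. It became 0 with sides of 10% or 30%, the left-out group kept, thinned cells, the most cycling cells left out, APC corrected for scatter, the cells with a Vwf UMI left out, or without plate 2 or plate 4 (0 to 1 without each plate). Without each plate the calls were 24 to 65 for PE, 142 to 197 for PE-Cy7, 109 to 146 for Alexa Fluor 700 and 242 to 310 for APC-Alexa Fluor 750. The difference in UMIs per cell rose from 69.2 to 199.5 with sides of 10%. In every alternative run, those of the 18 genes that were tested kept their direction, and 9 to 18 of them were still called, except for 0 without the block, 7 without plate 5 and 7 with the cells with a Vwf UMI left out. Of the alternatives that gave it an adjusted p, Mllt3 lost its call in 11, Myl10 in 8 and Sult1a1 in 7. Hist1h1a, Ifi27l1 and Lcp1 lost theirs in 10 each, and Arhgdib, Hist1h1b, Nrgn, Pcp4l1 and Tgm2 in 6 each. The number was 5 for Prtn3, 4 for H2afy and for Ramp1 and 3 for Vim. Vwf, Apoe and Gpx1 lost theirs in 1 each, the fit without the block. The cause of these changes was not tested.

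Of the named genes not called as reported, Cd34 passed in 7 alternatives, Ldha in 3, Zfpm1, Hba-a2 and Ube2c in 2 each and Pf4 and Mycn in 1 each. Some genes changed sign. Gng11 was at 0.25 (APC corrected for CFP), 0.033 (scatter), 0.084 (cycling cells left out), 0.11 (at least 1000 UMIs), 0.030 (left-out group kept), 0.0008 (no filter), 0.027 (matched on UMIs), 0.50 and 0.062 (sides of 10% and 30%), 0.12 (without plate 2) and 0.057 (without plate 4), and ranged from -0.17 to 0.12 without each plate. Kit was at -0.33 (APC corrected for other dyes), -0.033 (cells with a Vwf UMI left out), -0.045 (matched within group number), -0.062 and -0.11 (sides of 10% and 30%) and -0.082 (without plate 3; -0.082 to 0.071 without each plate). Txnip was at -0.080 (APC corrected for PE), -0.0089 (other dyes), -0.0026 (sides of 10%) and -0.016 (without plate 3; -0.016 to 0.14 without each plate). With APC corrected for PE, Cd63 was at -0.034, H2-Eb1 at -0.11, Lat at -0.072 and Procr at -0.11. Without each plate, Lat ranged from -0.27 (without plate 5) to 0.35 and Procr from -0.21 (without plate 3) to 0.48. With APC corrected for CFP, Pcna was at -0.026. Ube2c was at -0.14 there, against 0.71 as reported.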
